A study of Homo sapiens with 24 samples.

Results

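The 10 genes described here are TERT, which encodes the catalytic subunit of telomerase, and 9 genes whose products protect telomeres or work with the enzyme: TERF1, TERF2, TERF2IP, TINF2, POT1, ACD, RTEL1, WRAP53 and TEP1. They were taken by gene symbol, and all 10 of 10 were among the 13033 genes of the deposited expression table. The list was selected on the measured TERT level in OCIAML-3 after 24 h of drug against DMSO, so every TERT difference that involves either of these groups is a description with no test. The study treated 2 human acute myeloid leukaemia cell lines with RMC-7977, an inhibitor that binds RAS proteins in their active, GTP-loaded state, and sequenced polyadenylated RNA. OCIAML-3 carries NRAS Q61L and Molm-14 carries FLT3-ITD, an internal tandem duplication that activates the receptor kinase FLT3 upstream of RAS. In each line, cells were given 25 nM RMC-7977 for 24 h, 25 nM RMC-7977 for 2 h, or DMSO, the solvent. The DMSO libraries carry no time in their labels and are set against both times. Groups held 4 libraries each, apart from OCIAML-3 at 24 h with 3, because replicate 3 was not analysed here. The labels do not say whether replicate libraries are separate cultures, and p-values here measure only the spread between libraries, technical or not. Each line stands for 1 leukaemia and 1 combination of mutations.

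Telomerase adds telomere repeats to chromosome ends. TERT is its reverse transcriptase and copies a template held in the RNA subunit TERC, and dyskerin and its partners fold and stabilise that RNA. Most adult somatic cells keep TERT silent, whereas dividing leukaemia cells generally express it, so that the amount of TERT mRNA is known as a limiting step for the enzyme. The shelterin complex covers telomere DNA: TERF1 and TERF2 bind the double-stranded repeats, POT1 binds the single-stranded overhang, and TINF2, ACD and TERF2IP join them. ACD also recruits telomerase. RTEL1 is a helicase that unwinds telomere loops, WRAP53 carries the telomerase RNA to Cajal bodies, and TEP1 is a protein that binds the telomerase RNA and is also found in vault particles.

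The recovered depth was 15.4 to 22.4 M reads (M for 1e6) per library, with a median of 18.4 M. Values are CPM, the counts a gene would have in a library of 1e6 reads, scaled by the authors to the effective size of each library. All 10 myeloid marker genes looked for were in the table, and none of the T lymphoid, B lymphoid or erythroid markers was. Of 5 epithelial and stromal markers, 2 were in the table. Their summed CPM was 4.0 to 5.1 in OCIAML-3 at 24 h and 1.3 to 2.5 in DMSO. In Molm-14 it was 6.9 to 7.5 at 24 h and 6.8 to 7.4 in DMSO. The summed CPM of the myeloid markers, among them SPI1, LYZ and CD68, was higher at 24 h in both lines. In OCIAML-3 it was 6813 to 7229 at 24 h, 2266 to 2428 at 2 h and 2252 to 2378 in DMSO. In Molm-14 it was 1761 to 1823 at 24 h, 1157 to 1281 at 2 h and 1148 to 1204 in DMSO. At 2 h the sums overlapped with DMSO. At 24 h in OCIAML-3, 6 of 10 markers were at least 2-fold higher (limma, adjusted p under 0.05) and 0 lower, beside 35.4% of all genes in either direction. In Molm-14, 4 were higher and 1 lower, at a log2 fold change of -2.15, beside 17.9% of all genes. The part of these marker changes in the results below was not tested. In bulk RNA, fewer cells expressing a gene and less RNA per cell cannot be told apart.

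TERT lies at chr5:1253147-1295069 on the minus strand (GRCh38). The 250 bases before its start are shown because they hold the E-box and GC boxes through which MYC and SP1 are known to act on this gene, and the same window of TEP1 is shown because TEP1 moved in the opposite direction to TERT in both lines. Both come from RefSeq (GRCh38.p14), are written 5′ to 3′ on the gene's strand, and carry motif matches in capitals. The motifs searched on both strands were the E-box CACGTG, the GC box GGGCGG, which reads CCGCCC on the other strand, and the ETS core CCGGAA; none of them overlaps another here.
TERT, chr5:1295069-1295318, minus strand: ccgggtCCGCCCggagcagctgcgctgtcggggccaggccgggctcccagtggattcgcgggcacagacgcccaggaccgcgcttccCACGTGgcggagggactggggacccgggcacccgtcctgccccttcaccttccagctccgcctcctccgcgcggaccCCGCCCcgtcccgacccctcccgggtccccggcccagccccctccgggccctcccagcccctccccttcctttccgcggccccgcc
TEP1, chr14:20413502-20413751, minus strand: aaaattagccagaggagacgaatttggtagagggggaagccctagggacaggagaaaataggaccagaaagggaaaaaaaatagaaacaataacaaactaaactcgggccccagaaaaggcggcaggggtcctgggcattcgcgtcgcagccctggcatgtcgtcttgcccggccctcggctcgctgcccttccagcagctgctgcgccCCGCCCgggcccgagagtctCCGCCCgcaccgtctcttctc
The TERT window held 1 E-box, 163 bases before the start, and 2 GC boxes, 244 and 86 bases before it. TEP1 held 2 GC boxes, 41 and 21 bases before its start, and no E-box. These distances are counted from the RefSeq start. For TEP1 that start lies upstream of the GENCODE start, chr14:20413429, which bounds the gene span given with its levels below. RefSeq windows were matched for 8 of the 10 genes, and TERT was the only one of these 8 with an E-box. Of 35116 promoter windows of this length, 6.34% held an E-box, 42.6% a GC box and 14.5% the ETS core, which was in neither window shown. A match is a description of the letters and not of binding.

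TERT mRNA was lower under the drug in both lines, and its levels put the 6 groups in an order without overlap between neighbours. In OCIAML-3 it was 1.25, 1.12 and 1.82 CPM in the 3 libraries at 24 h. At 2 h it was 30.7, 32.3, 34.5 and 36.3 CPM, and in DMSO 119, 119, 114 and 107 CPM. OCIAML-3 thus held the highest TERT of the study in DMSO and the lowest after 24 h of drug. In Molm-14 the libraries held 6.04, 7.33, 7.52 and 6.84 CPM at 24 h, 11.5, 11.5, 12.2 and 9.71 CPM at 2 h, and 19.4, 20.5, 18.6 and 16.0 CPM in DMSO. Within Molm-14 every 24 h library was below every 2 h library, and every 2 h library below every DMSO library. From high to low the groups were OCIAML-3 in DMSO, OCIAML-3 at 2 h, Molm-14 in DMSO, Molm-14 at 2 h, Molm-14 at 24 h and OCIAML-3 at 24 h.

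**Figure D1:**
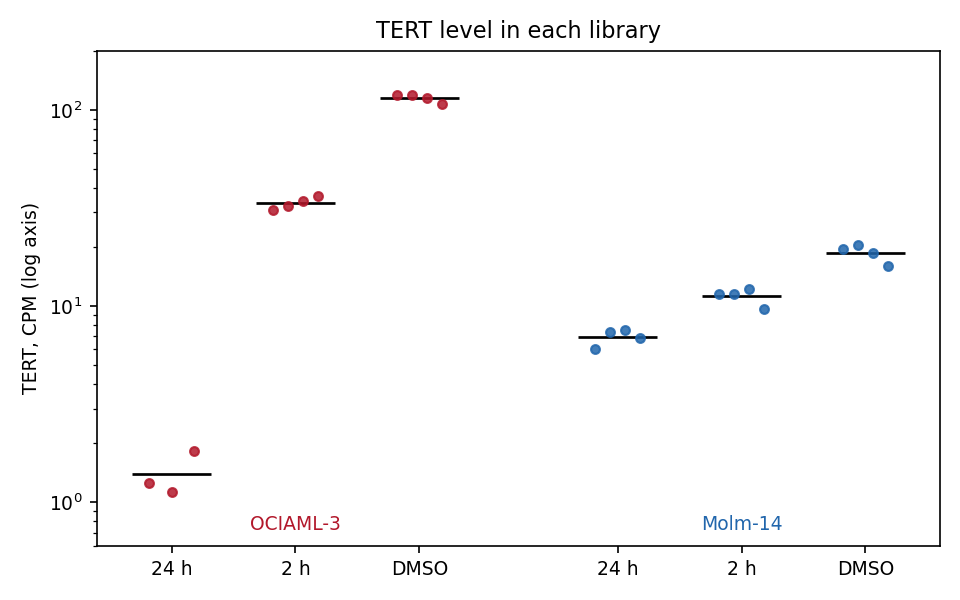
TERT level in each library, in CPM on a log axis, with OCIAML-3 in red, Molm-14 in blue and a bar at each group mean. The 3 OCIAML-3 libraries at 24 h lie between 1.12 and 1.82 CPM, under all others, and the 4 OCIAML-3 DMSO libraries lie at 107 CPM or more, above all others.

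The mean TERT level was 1.40 ± 0.37 CPM in OCIAML-3 at 24 h (SD, n = 3), 33.5 ± 2.42 CPM at 2 h and 115 ± 5.48 CPM in DMSO (SD, n = 4 each). After subtraction of the lowest value in the table, the 24 h level was 1.13% of the DMSO level, or 88.6-fold lower. That fold rests on few reads, since the 3 libraries at 24 h held 19.0 to 31.0 reads of TERT each and the DMSO libraries 1802 to 2555. On the log2 scale of the table the difference was -6.39 ± 0.12 (SE), rank 3 from the lowest of 13033 genes, given without a test. The 2 h level was 29.1% of the DMSO level, a log2 difference of -1.78 ± 0.11, also without a test because it shares the DMSO libraries. Between 24 h and 2 h the log2 difference in OCIAML-3 was -4.61 ± 0.12, again without a test.

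Molm-14 averaged 6.93 ± 0.66 CPM at 24 h, 11.2 ± 1.07 CPM at 2 h and 18.6 ± 1.90 CPM in DMSO (SD, n = 4 each). TERT fell at 24 h by a log2 fold change of -1.43 ± 0.11 (limma, adjusted p = 3.7e-13), to 36.9% of the DMSO level. At 2 h the log2 fold change was -0.73 ± 0.11 (adjusted p = 8.67e-07), past the p threshold but short of the 2-fold change that a call also requires, at 60.2% of the DMSO level. Between 24 h and 2 h it was -0.70 ± 0.11 (adjusted p = 1.21e-06), short of a call as well. Between the lines (OCIAML-3 minus Molm-14), the responses differed by -4.96 ± 0.16 log2 units at 24 h and -1.05 ± 0.15 at 2 h, and both differences are descriptions. In DMSO, TERT was higher in OCIAML-3 than in Molm-14 by 2.63 ± 0.11 log2 units, or 6.18-fold, which is a description too since those OCIAML-3 libraries were part of the choice.

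Shelterin genes differed by less than 2-fold in every comparison, and none of the 6 was called in any of the 9 comparisons (limma). The share of all genes called ran from 5.64% for the 2 h response between lines to 35.4% for OCIAML-3 at 24 h against DMSO. TERF1 (chr8:73008864-73048122, plus strand), a double-strand repeat binding protein, had 35.4, 36.5 and 37.7 CPM in OCIAML-3 at 24 h, 38.9 to 42.4 CPM at 2 h and 36.6 to 41.9 CPM in DMSO. The 24 h and DMSO groups overlapped, with a log2 difference of -0.10 (95% interval -0.23 to 0.03, adjusted p = 0.156). In Molm-14 it had 29.7, 29.0, 30.5 and 32.5 CPM at 24 h, below all DMSO libraries at 47.4, 38.8, 45.1 and 48.7 CPM. That difference of -0.56 ± 0.06 (adjusted p = 9.49e-10) was the largest of the shelterin genes in Molm-14. TERF1 has 5 annotated pseudogenes, so its reads may be split between copies.

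TERF2 (chr16:69355561-69408571, minus strand) binds the same repeats and holds the protective loop at the chromosome end. It had 35.9, 33.5 and 34.2 CPM in OCIAML-3 at 24 h, 41.0 to 46.0 CPM at 2 h, and 50.2, 45.6, 51.5 and 49.1 CPM in DMSO. All 24 h libraries were below all DMSO libraries, and the log2 fold change was -0.51 ± 0.05 (adjusted p = 8.8e-10). In Molm-14 the groups overlapped at 24 h, with 37.3 to 41.6 CPM against 41.5 to 44.6 CPM in DMSO and a log2 fold change of -0.12 ± 0.05 (adjusted p = 0.0317). TERF2IP (chr16:75647786-75761872, plus strand), which binds TERF2, was the most abundant of the 10 genes per kilobase of merged annotated exons in every group. It had 80.2 to 86.4 CPM in OCIAML-3 at 24 h against 86.7 to 94.9 CPM in DMSO, and 50.8 to 54.5 CPM in Molm-14 at 24 h against 63.5 to 67.8 CPM in DMSO. Its log2 fold changes were -0.13 ± 0.05 (adjusted p = 0.013) in OCIAML-3, where the sign depended on the scaling and became positive at 0.042 with library totals, and -0.30 ± 0.04 (adjusted p = 4.39e-07) in Molm-14.

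TINF2 (chr14:24239643-24242674, minus strand), the hub that links the DNA-binding subunits, went the other way in OCIAML-3. Its libraries held 53.1, 50.5 and 50.0 CPM at 24 h, all above the DMSO range of 39.8 to 44.8 CPM, with a log2 fold change of 0.28 ± 0.06 (adjusted p = 4.18e-05). In Molm-14 the 24 h range of 35.3 to 40.4 CPM overlapped the DMSO range of 35.4 to 38.0 CPM (log2 difference 0.03, 95% interval -0.07 to 0.14). POT1 (chr7:124822386-124929983, minus strand), the overhang-binding subunit, had 36.4, 38.2 and 41.2 CPM in OCIAML-3 at 24 h and 34.5 to 40.9 CPM at 2 h, both above the DMSO range of 30.0 to 32.7 CPM. The log2 fold changes were 0.28 ± 0.07 at 24 h (adjusted p = 0.000981) and 0.27 ± 0.07 at 2 h (adjusted p = 0.00147). POT1 overlapped between 24 h and DMSO in Molm-14, with a log2 difference of -0.06 (95% interval -0.20 to 0.08). ACD (chr16:67657512-67660815, minus strand), the subunit that recruits telomerase, had 38.3, 37.3 and 31.9 CPM in OCIAML-3 at 24 h, below the DMSO libraries at 56.8, 49.0, 55.3 and 46.3 CPM. Its log2 fold change there was -0.53 ± 0.08 (adjusted p = 2.58e-07), whereas in Molm-14 the groups overlapped at 28.3 to 31.3 CPM against 28.0 to 31.4 CPM in DMSO (log2 difference -0.03, 95% interval -0.18 to 0.11). Exons of ACD overlap 58 bases of CARMIL2 on the other strand, and CARMIL2 rose at 24 h in both lines. By limma, its log2 fold change was 2.37 in OCIAML-3 (adjusted p = 2.62e-11) and 2.49 in Molm-14 (adjusted p = 2.22e-12). Without a stated strand setting, some reads could belong to either gene.

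**Figure D2:**
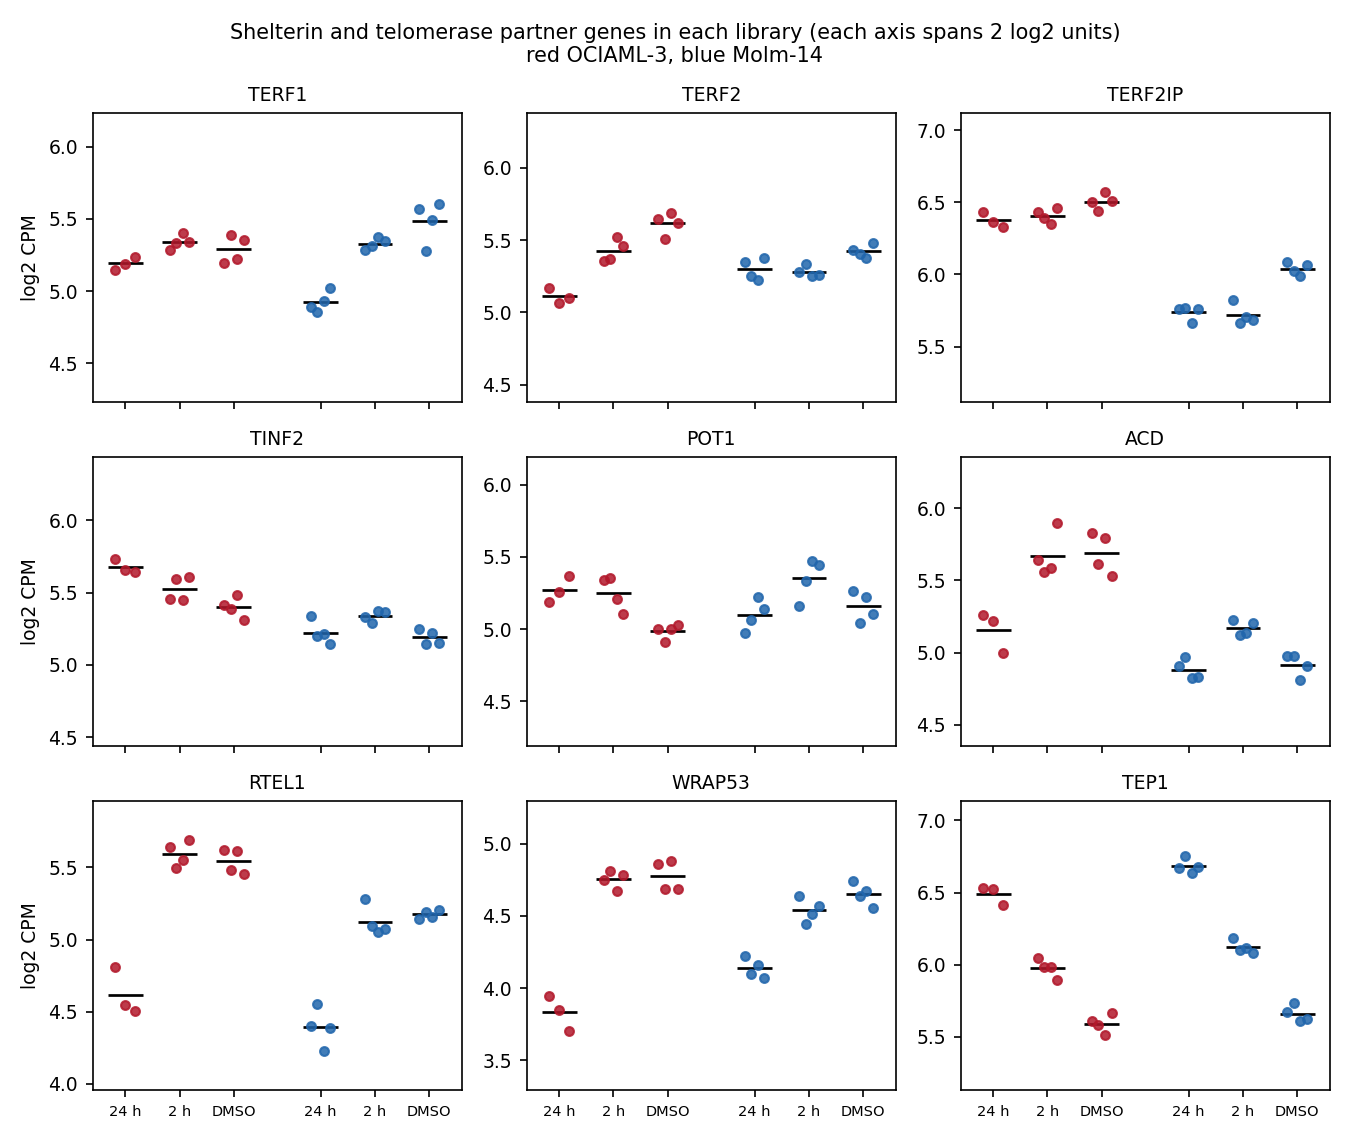
Levels of the 9 shelterin and partner genes in each library, in log2 CPM, with OCIAML-3 in red, Molm-14 in blue and a bar at each group mean; each axis spans the same 2 log2 units. RTEL1 and WRAP53 sit lowest at 24 h in both lines and TEP1 sits highest there.

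RTEL1 and WRAP53 were lower at 24 h in both lines and TEP1 was higher. RTEL1 (chr20:63657810-63696253, plus strand) had 28.0, 23.3 and 22.7 CPM in OCIAML-3 at 24 h, against 45.2 to 51.6 CPM at 2 h and 43.8 to 49.1 CPM in DMSO. In Molm-14 it had 21.1, 23.5, 18.7 and 20.9 CPM at 24 h, against 33.1 to 38.9 CPM at 2 h and 35.3 to 36.9 CPM in DMSO. All 24 h libraries were below all others of their line. The log2 fold changes at 24 h were -0.92 ± 0.07 (adjusted p = 1.41e-12) in OCIAML-3 and -0.78 ± 0.07 (adjusted p = 1.59e-11) in Molm-14, both short of 2-fold. Without replicate 1 of the 24 h libraries, OCIAML-3 reached a call at -1.02. At 2 h RTEL1 overlapped with DMSO in both lines (log2 differences 0.05 and -0.05). It shares 4522 exon bases with the read-through gene RTEL1-TNFRSF6B, whose own log2 fold change at 24 h was 0.03 (adjusted p = 0.751) in OCIAML-3 and -0.97 (adjusted p = 1.27e-10) in Molm-14, so the split of reads between these names is uncertain.

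WRAP53 (chr17:7686071-7703502, plus strand) was likewise near its DMSO level at 2 h and lower at 24 h. It had 15.4, 14.4 and 13.0 CPM in OCIAML-3 at 24 h, 25.5 to 28.1 CPM at 2 h and 25.7 to 29.5 CPM in DMSO. In Molm-14 it had 18.7, 17.1, 17.9 and 16.8 CPM at 24 h, 21.7 to 24.9 CPM at 2 h and 23.5 to 26.7 CPM in DMSO. Both lines had their 24 h libraries below all DMSO libraries, with log2 fold changes of -0.95 ± 0.07 (adjusted p = 1.96e-13) in OCIAML-3 and -0.51 ± 0.07 (adjusted p = 2.96e-08) in Molm-14. WRAP53 was called in OCIAML-3 without replicate 1 of the 24 h libraries.

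TEP1 (chr14:20365667-20413429, minus strand) was higher at 2 h and higher still at 24 h in both lines. OCIAML-3 libraries held 92.6, 92.1 and 85.2 CPM at 24 h, 66.0, 63.3, 63.2 and 59.5 CPM at 2 h, and 48.8, 47.9, 45.6 and 50.7 CPM in DMSO. Molm-14 libraries held 102, 108, 99.6 and 102 CPM at 24 h, 72.8, 68.6, 69.2 and 67.7 CPM at 2 h, and 51.1, 53.2, 49.0 and 49.4 CPM in DMSO. In neither line did any pair of these groups overlap. TEP1 rose in Molm-14 at 24 h, with a log2 fold change of 1.02 ± 0.05 (adjusted p = 1.19e-18), and the value of 0.90 ± 0.05 in OCIAML-3 (adjusted p = 8.71e-17) was short of a call. The first of these was 0.998 and no longer called without replicate 2 of the Molm-14 24 h libraries, and the second was called, at 1.07, with library totals. At 2 h the log2 fold changes were 0.39 ± 0.05 in OCIAML-3 (adjusted p = 1.55e-08) and 0.46 ± 0.05 in Molm-14 (adjusted p = 4.56e-10).

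**Figure D3:**
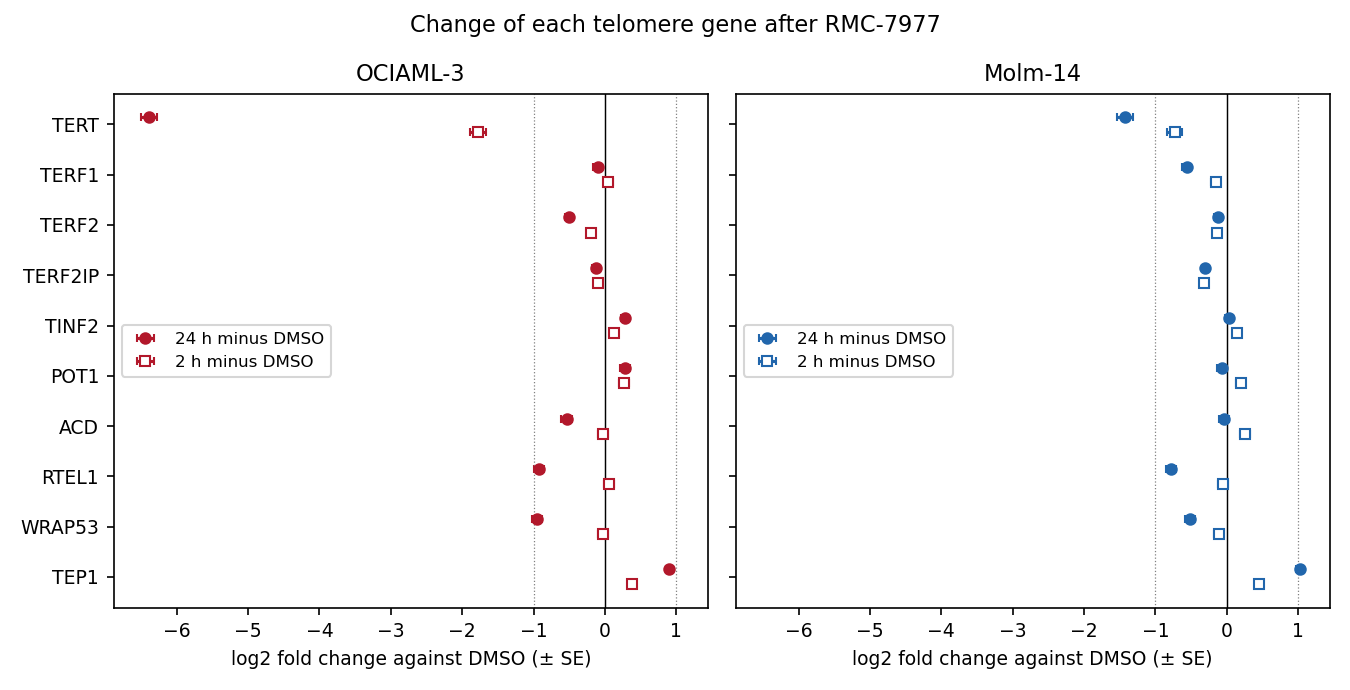
Log2 fold change against DMSO of each of the 10 genes, with the SE, in OCIAML-3 (left) and Molm-14 (right); filled circles are 24 h, open squares 2 h, and dotted lines mark a 2-fold change. TERT stands at -6.39 and -1.78 in OCIAML-3, and the other 9 genes lie between -0.95 and 1.02 in all 4 comparisons.

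A gene was called at an adjusted p under 0.05 with at least a 2-fold change. In OCIAML-3 at 24 h, 0 of the 9 genes other than TERT were called (limma), while 35.4% of all genes were. At any size of change, 8 of these 9 had an adjusted p under 0.05, 3 higher and 5 lower, against 84.4% of all genes. In OCIAML-3 at 2 h, 0 of the same 9 were called (limma), where 6.58% of all genes were; 4 of 9 passed at any size, against 62.2% of all genes. Between 24 h and 2 h in OCIAML-3, 0 of 9 were called and 22.6% of all genes; RTEL1 was called at -1.01 without replicate 2 at 2 h and at -1.07 without replicate 1 at 24 h.

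In Molm-14 at 24 h, 2 of 10 were called, TERT lower and TEP1 higher, beside 17.9% of all genes; 7 of 10 passed at any size, beside 76.3%. At 2 h, 0 of 10 were called, beside 7.29% of all genes, and 8 of 10 passed at any size, beside 59.5%. Between 24 h and 2 h, 0 of 10 were called, beside 10.6%.

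The response differed between the lines for several genes by small amounts. For the 24 h response 0 of 9 were called, beside 17.8% of all genes, and 7 of 9 passed at any size, beside 65.4%. Relative to Molm-14, the 24 h change in OCIAML-3 was more negative for ACD (log2 difference -0.50 ± 0.11, adjusted p = 0.000145), WRAP53 (-0.43 ± 0.10, adjusted p = 0.000263) and TERF2 (-0.38 ± 0.07, adjusted p = 4.99e-05). It was more positive for TERF1 (0.46 ± 0.09, adjusted p = 4.14e-05), POT1 (0.34 ± 0.10, adjusted p = 0.00435), TINF2 (0.25 ± 0.08, adjusted p = 0.00589) and TERF2IP (0.17 ± 0.07, adjusted p = 0.0242). The changes of RTEL1 and TEP1 were not told apart between the lines, with 95% intervals of the difference of -0.35 to 0.07 and -0.26 to 0.02. For the 2 h response, 0 of 9 were called, beside 5.64% of all genes, and 2 of 9 passed at any size, beside 38.7%; these were TERF2IP (0.22) and ACD (-0.28). In DMSO, 0 of 9 were called between the lines, beside 30.2% of all genes. At any size 7 of 9 passed, beside 82.4%, and the largest difference among the 9 was ACD, higher in OCIAML-3 by 0.78 ± 0.07 (adjusted p = 2.82e-11).

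Levels were also divided by the merged length of all annotated exons of each gene in GENCODE 29. No transcript length was used, so the order of the genes holds for this length only. On this scale, the mean level of TERT was 0.304 CPM per kb in OCIAML-3 at 24 h, 7.27 at 2 h and 24.9 in DMSO. Only TERF2IP had a higher mean in OCIAML-3 in DMSO, at 26.9 CPM per kb, while at 24 h TERT had the lowest mean of the 10, under WRAP53 at 2.80 CPM per kb. In Molm-14 TERT had 1.51 CPM per kb at 24 h, 2.44 at 2 h and 4.05 in DMSO, the lowest mean of the 10 genes in each group. The next above it in DMSO was TEP1 at 4.47 CPM per kb.

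The mRNAs for proteins that assemble the telomerase ribonucleoprotein were lower at 24 h in both lines. Whether these lower levels concern telomerase or other work of the same proteins was not tested. The list held the genes for dyskerin (DKC1), which binds the RNA subunit, its partners NHP2, NOP10 and GAR1, the assembly factors NAF1, SHQ1, RUVBL1 and RUVBL2, and the RNA-trimming enzyme PARN; the RNA gene TERC is not analysed here. In OCIAML-3 at 24 h, 7 of 9 fell, with a list median of -2.02 against 0.01 over all genes, and 17.1% of all genes were called lower. RUVBL1 averaged 23.2 ± 0.339 CPM at 24 h (SD, n = 3) and 148 ± 7.83 CPM in DMSO (SD, n = 4), a log2 fold change of -2.67 ± 0.05 (adjusted p = 3.5e-29). DKC1 averaged 49.7 ± 3.81 CPM at 24 h and 228 ± 4.39 CPM in DMSO, a log2 fold change of -2.20 ± 0.04 (adjusted p = 2.7e-28). NHP2 (-2.10), GAR1 (-2.05), RUVBL2 (-2.02), NOP10 (-1.17) and NAF1 (-1.14) fell too, although NAF1 was at -0.97 and not called with library totals, and SHQ1 (-0.97) and PARN (-0.48) were not called.

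In Molm-14 at 24 h, 4 of 9 fell, with a median of -0.97 against 0.00 over all genes and 6.57% of all genes called lower. These were RUVBL1 (-1.48), GAR1 (-1.29), RUVBL2 (-1.24) and NHP2 (-1.10). DKC1 averaged 272 ± 6.19 CPM at 24 h and 530 ± 10.3 CPM in DMSO, a log2 fold change of -0.97 ± 0.04 that missed the size for a call. At 2 h none of the 9 was called in either line (limma), beside 6.58% of all genes in OCIAML-3 and 7.29% in Molm-14. In OCIAML-3, 9 of 9 had an adjusted p under 0.05, 8 lower and 1 higher, beside 62.2% of all genes. In Molm-14, 8 of 9 passed, all of them lower, beside 59.5% of all genes. The list medians at 2 h were -0.65 in OCIAML-3 and -0.52 in Molm-14. DKC1 was at -0.88 ± 0.04 in OCIAML-3 and -0.91 ± 0.04 in Molm-14 at 2 h.

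The CST complex, which ends telomerase action and brings in DNA polymerase alpha-primase to fill in the complementary strand, had higher CTC1. CTC1 averaged 78.7 ± 5.64 CPM in OCIAML-3 at 24 h and 31.6 ± 1.84 CPM in DMSO, and it rose by 1.31 ± 0.06 on the log2 scale (adjusted p = 4.2e-19). In Molm-14 it averaged 53.0 ± 1.67 CPM at 24 h and 27.5 ± 1.66 CPM in DMSO, a log2 fold change of 0.95 ± 0.05 that was not called. STN1 had 0.16 in OCIAML-3 and 0.96 in Molm-14 at 24 h, and TEN1 0.26 and 0.21, none of them called. The polymerase subunits ran the other way at 24 h: 3 of 4 fell in OCIAML-3, POLA2 (-2.49), POLA1 (-1.99) and PRIM1 (-1.82), beside 17.1% of all genes, and 2 of 4 in Molm-14, POLA1 (-1.25) and POLA2 (-1.18), beside 6.57%.

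Of 25 other genes for telomere processing and end protection, 10 fell in OCIAML-3 at 24 h, beside 17.1% of all genes, with a median of -0.73. None was called higher in the table's own scaling, where 2392 of all 13033 genes were. With library totals, with median-of-ratios scaling, or without DMSO replicate 2 or 4, 1 of the 25 was called higher. The 4 with the smallest adjusted p were the flap nuclease FEN1 (-3.91), the exonuclease EXO1 (-3.33), and XRCC5 (-1.82) and XRCC6 (-1.65), the subunits of the Ku end-binding protein. In Molm-14 at 24 h, 4 of 25 fell: EXO1 (-1.63), FEN1 (-1.58), PINX1 (-1.38) and XRCC6 (-1.07), beside 6.57% of all genes. XRCC6 was not called there with library totals or median-of-ratios scaling, at -0.98 in each. PINX1, an inhibitor of telomerase activity, was the 1 gene of this list called at 2 h in each line, a share of the 25 that is under the 6.58% of all genes called in OCIAML-3 and the 7.29% in Molm-14. It averaged 15.3 ± 0.171 CPM at 2 h and 34.6 ± 1.79 CPM in DMSO in OCIAML-3, and 11.4 ± 1.02 CPM at 2 h and 25.6 ± 1.32 CPM in DMSO in Molm-14. Its log2 fold change at 2 h was -1.17 ± 0.07 in each line.

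Replication genes give the scale of these shifts, as several proteins of the last lists also serve in DNA replication. All 7 of MCM2 to MCM7 and PCNA fell in OCIAML-3 at 24 h, with a median of -2.62, and 6 of 7 fell in Molm-14, with a median of -1.34, where 17.1% and 6.57% of all genes were called lower. MCM3 in Molm-14 lost its call with library totals (-0.98) and median-of-ratios scaling (-0.99). None was called at 2 h in either line (limma), beside 6.58% of all genes in OCIAML-3 and 7.29% in Molm-14. An adjusted p under 0.05 was reached at small sizes by 3 in OCIAML-3 and 2 in Molm-14, beside 62.2% and 59.5% of all genes. The summed CPM of the 7 genes was 428 to 455 in OCIAML-3 at 24 h, 2710 to 2765 at 2 h and 2864 to 3105 in DMSO. In Molm-14 it was 1147 to 1176 at 24 h, 2690 to 2871 at 2 h and 2829 to 2877 in DMSO. At 2 h in OCIAML-3, where TERT was at 29.1% of its DMSO level, the 7 genes had log2 fold changes between -0.32 and 0.08. Their part in the 24 h results was not tested.

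**Figure D4:**
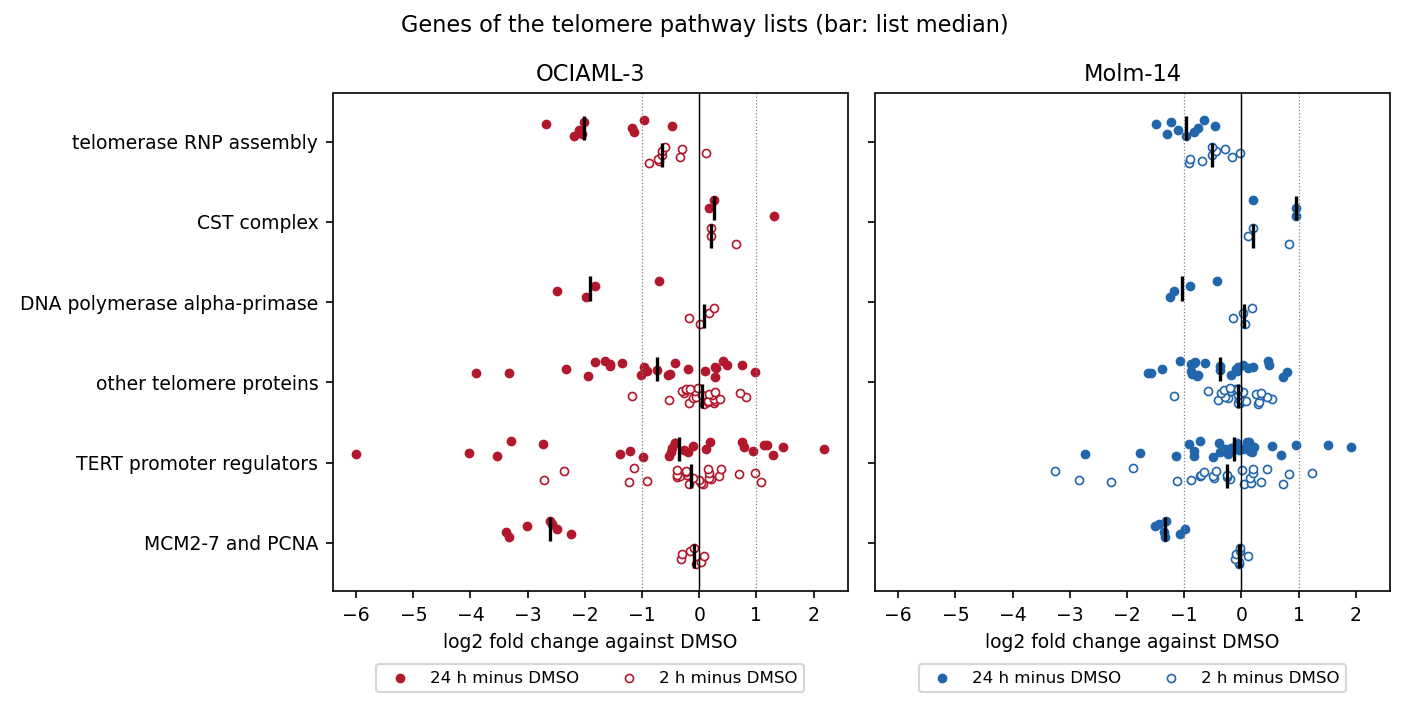
Log2 fold change against DMSO of each gene of 6 lists, in OCIAML-3 (left) and Molm-14 (right), with filled circles for 24 h, open circles for 2 h, a black bar at the list median and dotted lines at a 2-fold change. The medians of the telomerase RNP list are -2.02 at 24 h and -0.65 at 2 h in OCIAML-3, and -0.97 and -0.52 in Molm-14.

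Genes for transcription factors described at the human TERT promoter changed in both directions. Of 26 such genes, 5 rose and 7 fell in OCIAML-3 at 24 h, beside 35.4% of all genes called in either direction, and 1 rose and 4 fell at 2 h, beside 6.58%. At 2 h in OCIAML-3 the fallen were 2 with a pseudocount of 1 CPM, and the risen were 2 with library totals, with median-of-ratios scaling or without DMSO replicate 1. In Molm-14, 2 rose and 3 fell at 24 h, beside 17.9% of all genes, and 1 rose and 5 fell at 2 h, beside 7.29%. The list medians stayed between -0.35 and -0.13.

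MYC, whose product activates TERT through E-boxes, had 54.2 to 58.4 CPM in OCIAML-3 at 24 h, 69.4 to 79.8 CPM at 2 h and 362 to 382 CPM in DMSO. In Molm-14 it had 310 to 326 CPM at 24 h, 59.4 to 66.6 CPM at 2 h and 597 to 605 CPM in DMSO. Its lowest group was thus 24 h in OCIAML-3 and 2 h in Molm-14, while TERT was lowest at 24 h in both. The part of MYC in the TERT levels was not tested. MYC fell in OCIAML-3 at 24 h (-2.74 ± 0.05) and 2 h (-2.37 ± 0.04) and in Molm-14 at 2 h (-3.26 ± 0.04), with adjusted p-values of 1.3e-29, 4.3e-27 and 4.3e-31 (limma). At 24 h in Molm-14 it had a log2 fold change of -0.91 and was not called.

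ETV5, an ETS family factor downstream of ERK signalling, had 0.55 to 1.07 CPM in OCIAML-3 at 24 h, 1.59 to 2.01 CPM at 2 h and 11.2 to 12.4 CPM in DMSO. In Molm-14 it had 8.14 to 11.1 CPM at 24 h, 4.05 to 4.85 CPM at 2 h and 28.4 to 32.4 CPM in DMSO, so it fell at both times in both lines. E2F1, a cell cycle factor, fell at 24 h in OCIAML-3 to 5.72 to 6.85 CPM, against 68.2 to 77.6 CPM in DMSO. In Molm-14 it fell at 24 h to 26.5 to 31.2 CPM, against 58.5 to 68.8 CPM in DMSO. At 2 h E2F1 had 62.3 to 75.1 CPM in OCIAML-3, overlapping with DMSO, and 103 to 111 CPM in Molm-14, above all DMSO libraries. MXD1, which competes with MYC for its partner MAX, rose at 24 h in both lines. Its log2 fold change was 1.92 ± 0.06 in Molm-14, and 1.44 to 1.52 in OCIAML-3 with single libraries left out. The ETS factor gene ETS2 rose in OCIAML-3 at both times, with means of 477 ± 7.77 CPM at 24 h (SD, n = 3), 413 ± 6.84 CPM at 2 h and 196 ± 5.23 CPM in DMSO. WT1, a zinc finger factor, had 12.3 to 13.9 CPM at 2 h in Molm-14 and 45.2 to 53.1 CPM in DMSO (log2 fold change -1.89 ± 0.20), and reached at most 2.24 CPM in any OCIAML-3 library.

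**Figure D5:**
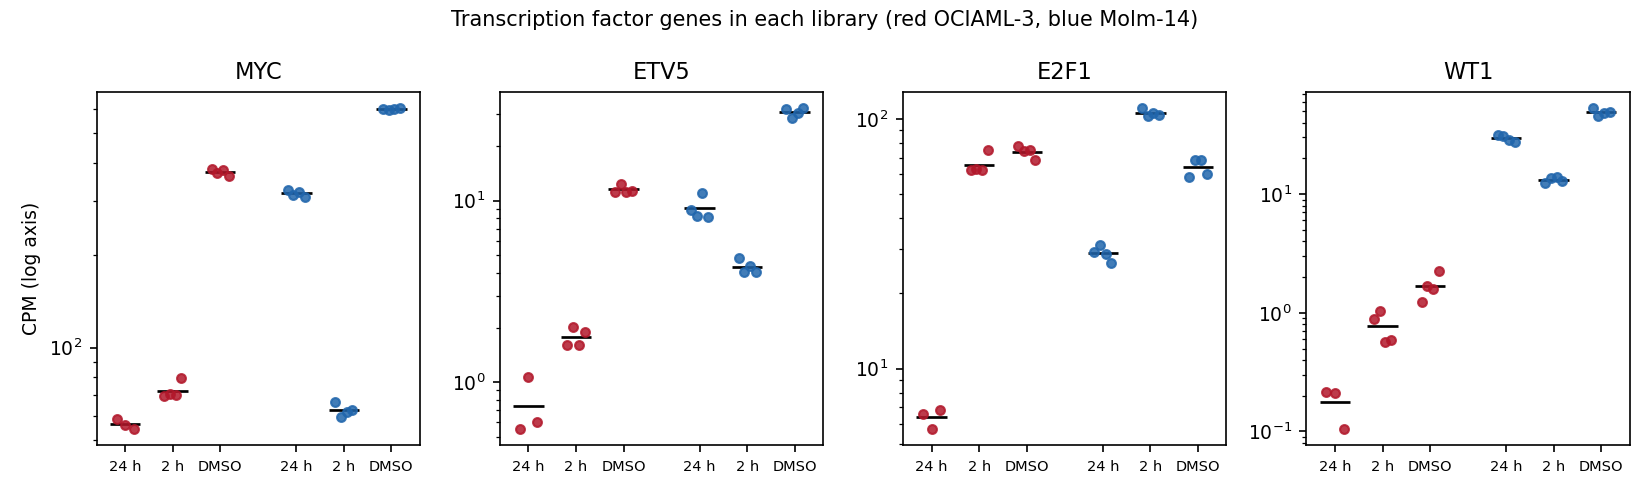
Levels of MYC, ETV5, E2F1 and WT1 in each library, in CPM on log axes, with OCIAML-3 in red, Molm-14 in blue and a bar at each group mean. MYC and ETV5 are lowest at 24 h in OCIAML-3 and at 2 h in Molm-14, and E2F1 is lowest at 24 h in both lines.

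Genes whose pattern over the 23 libraries was among the most like that of TERT were found by Pearson's r on the log2 scale, given as a description, since all genes share the libraries and their 6 groups. They included NCS1 (r = 0.994), SAPCD2 (0.990) and HSD11B1 (0.979). NCS1, which encodes a neuronal calcium sensor, averaged 16.6 CPM at 24 h, 91.6 CPM at 2 h and 178 CPM in DMSO in OCIAML-3, and 35.4 CPM at 24 h, 47.4 CPM at 2 h and 69.3 CPM in DMSO in Molm-14. Among the other 9 telomere genes, TERF2 (0.914), WRAP53 (0.887) and RTEL1 (0.799) came nearest to TERT. ACD was at 0.626, TERF2IP at 0.388 and TERF1 at 0.369. TINF2 (-0.224), POT1 (-0.421) and TEP1 (-0.789) had a negative r. In Molm-14 at 24 h, where TERT fell, TINF2 (log2 difference 0.03) and POT1 (-0.06) overlapped with DMSO. These r values include OCIAML-3 at 24 h and in DMSO, the groups TERT was chosen on. Those groups also hold its lowest and highest levels.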

How the data were processed

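Polyadenylated RNA of 23 libraries in 6 groups was analysed. The values deposited by the authors are log2 CPM per gene symbol, scaled to effective library size. All columns share a lowest value of -3.26, which equals 0.105 CPM and a prior of 1.96 reads, so fold changes of low genes are understated. The submitters' processing notes name STAR 2.7.8a, RSEM 1.3.3, Trimmomatic 0.36, MultiQC 1.28, limma 3.38.3, edgeR 3.24.3 and the build hg38 (GRCh38). Their settings, the strand option and any low-expression filter are not given in the sources here. Depth was recovered from the spacing of low values: 74.9% to 82.7% of the values no higher than 20 reads were whole to within 0.05, too few for a test on counts as the main test.

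One limma 3.58.1 fit (R 4.3.3, trend and robust options) of 6 group means over all 23 libraries gave each comparison, with Benjamini-Hochberg adjustment over 13033 genes. A call needed an adjusted p under 0.05 and a log2 fold change of 1 or more in size; rose and fell are used for calls, and TERT is given no test in comparisons with OCIAML-3 at 24 h or in DMSO, the groups it was chosen on; leaving out those in DMSO was decided after seeing the data. The fit was tested on simulated data. No 2 libraries of a group agreed within sampling noise. The labels give every library the same batch. The 10 genes and the lists were chosen with earlier results of these data known. Named genes were all 10 members, up to 4 called genes per list and comparison with the smallest adjusted p, every gene of the telomerase assembly, CST and TERT neighbour lists described, and the 5 genes most like TERT, of which some are not reported here; MYC in Molm-14 at 24 h and the overlapping genes given beside members were named after their values were seen. Alternatives were other scalings, a pseudocount, a filter, a fit per line, voom on recovered reads, a replicate block and leaving out each library.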

Additional observations from a re-analysis of the deposited data

Results flagged for a closer look

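In Molm-14 at 24 h, TERF2IP in replicate 3 was at 5.67 log2 CPM, apart from the other libraries of the group at 5.76 to 5.77. It was the 1 flag among 50 groups of 4 libraries tested for a sample far from the others, where chance flags about 1 in 20.

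The response to the drug differed between the lines for 9 of 18 tests, each with limma and an adjusted p under 0.05. Over all genes, 65.4% reached that adjusted p for the 24 h response and 38.7% for the 2 h response. At 24 h the differences (OCIAML-3 minus Molm-14) were 0.46 for TERF1, -0.38 for TERF2, 0.17 for TERF2IP, 0.25 for TINF2, 0.34 for POT1, -0.50 for ACD and -0.43 for WRAP53. At 2 h they were 0.22 for TERF2IP and -0.28 for ACD. All were smaller than a 2-fold change.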

How the results depend on the processing

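Of the 58 telomere gene differences with an adjusted p under 0.05, 1 changed sign under an alternative, and of the 32 that did not pass or were not tested, 11 did, all of them 0.099 log2 units or less in size. The 1 was TERF2IP, which in OCIAML-3 at 24 h was -0.13 in the table's own scaling and 0.042 (adjusted p = 0.409) when scaled to library totals, a scaling that moves the median of all genes by 0.185 there. The count of called genes other than TERT in OCIAML-3 at 24 h was 0, and became 1 with library totals and 1 with median-of-ratios scaling, as TEP1 reached 1.07 and 1.02; leaving out single libraries gave 0 to 2. Without replicate 1 of the 24 h libraries, RTEL1 (-1.02) and WRAP53 were called. Between 24 h and 2 h in OCIAML-3 the count ran from 0 to 1, and in Molm-14 at 24 h from 1 to 2 (TEP1 was at 0.998 without replicate 2 of that group). TERT in OCIAML-3 at 24 h was -5.67 with a pseudocount of 1 CPM and ran from -6.60 to -6.25 with single libraries left out.

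The replicate numbers did not pair the libraries: deviations of same-numbered libraries correlated at -0.087 to 0.116 in Molm-14 and -0.292 to 0.213 in OCIAML-3. With a replicate block the counts of called genes were unchanged, at 0 in OCIAML-3 and 2 in Molm-14 at 24 h and 0 in each line at 2 h. For list genes and list counts, the same alternatives were added after seeing the data. No called list gene reversed. Calls were lost in 96 of 6115 repeats, among them NAF1, XRCC6 and MCM3 under other scalings as given above. CTC1 and STN1 were both called in Molm-14 at 24 h with library totals or median-of-ratios scaling. A fit to one line gives no value for differences between lines. Depth limits TERT in OCIAML-3 at 24 h, where each library held 31.0 reads or fewer.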

Other observations

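Of the genes around TERT on chromosome 5, 17 with a start within 1000 kb of that of TERT were in the table. In OCIAML-3 at 24 h, 6 of 17 fell and 2 rose, beside 35.4% of all genes called in either direction. Those that fell were TRIP13 (-2.81), which acts in the mitotic checkpoint, NDUFS6 (-2.14) and MRPL36 (-1.88), which encode mitochondrial proteins, the lysophospholipid acyltransferase gene LPCAT1 (-2.09), the centrosome gene CEP72 (-1.73) and CLPTM1L (-1.05). ZDHHC11 (2.00), of the palmitoyltransferase family, and AHRR (1.36), the repressor of the aryl hydrocarbon receptor, rose. The start of CLPTM1L lies 50.0 kb from that of TERT and the start of LPCAT1 229 kb from it. CLPTM1L averaged 210 ± 5.12 CPM at 24 h (SD, n = 3) and 438 ± 28.1 CPM in DMSO (SD, n = 4), and its log2 fold change was -0.88 with library totals, short of a call.

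In Molm-14 at 24 h, 3 of 17 fell and 4 rose, beside 17.9% of all genes called. TRIP13 (-1.48), NDUFS6 (-1.02) and MRPL36 (-1.01) fell, and the potassium-chloride cotransporter gene SLC12A7 (2.64), AHRR (1.14), SLC9A3-AS1 (1.14) and NKD2 (1.06), an inhibitor of WNT signalling, rose. NDUFS6 and MRPL36 missed the size for a call in Molm-14 with library totals or median-of-ratios scaling. LPCAT1 had a log2 fold change of -2.09 in OCIAML-3 and -0.06 in Molm-14. BRD9 was at -0.85 in OCIAML-3 and -0.57 in Molm-14 at 24 h, neither of them called. In DMSO, 9 of 17 were called higher in OCIAML-3 than in Molm-14 and 1 lower, beside 30.2% of all genes called in either direction. Among the higher were LPCAT1 (2.49), TRIP13 (1.54), CLPTM1L (1.34), BRD9 (1.26) and MRPL36 (1.04), and SLC12A7 (-1.20) was lower. MRPL36 was at 0.992 with median-of-ratios scaling and SLC12A7 at -0.48 with a pseudocount of 1 CPM, both short of a call. AHRR, CEP72, ZDHHC11 and SLC9A3-AS1 were outside the list of 11 neighbours and are named after their values were seen.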
